A study of Mus musculus with 16 samples.

Results

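The enzymes of triglyceride synthesis analysed here were *Gpam* and *Gpat4*, *Agpat1*, *Agpat2*, *Agpat3* and *Agpat5*, *Lpin1*, and *Dgat1* and *Dgat2*. These 9 genes were taken by their symbols from a table of 19373 genes. RNA was sequenced from gonadal white adipose tissue (gWAT) of 16 male C57BL/6J mice after 20 weeks on chow or a high-fat diet (HFD). Control mice were *Mboat7* flox/flox without Cre. *Mboat7* ASKO mice carried the same floxed allele with Cre driven by the adiponectin promoter, so that adipocytes lose the gene and the remaining cells of the tissue keep it. Each genotype was studied on both diets, with 4 mice and 1 library per mouse in each of the 4 groups. No mice with Cre and an intact *Mboat7* were sequenced, so effects of Cre and of the deletion cannot be told apart.

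Adipocytes store energy as triglyceride, which they build on a glycerol 3-phosphate backbone. A glycerol-3-phosphate acyltransferase (GPAM or GPAT4) adds the first fatty acid and gives lysophosphatidic acid, and an AGPAT enzyme adds the next and gives phosphatidic acid. A lipin then removes the phosphate to give diacylglycerol, and DGAT1 or DGAT2 adds the last fatty acid. Phosphatidic acid is also the start of phosphatidylinositol synthesis, the lipid class that MBOAT7 remodels by placing arachidonic acid on lysophosphatidylinositol. DGAT1 belongs to the same membrane-bound acyltransferase family as MBOAT7, whereas DGAT2 belongs to an unrelated family. Loss of AGPAT2 causes congenital generalized lipodystrophy in humans, and loss of lipin 1 causes lipodystrophy in mice.

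Values were given as FPKM, the fragments per kilobase of transcript scaled to the fragments mapped, so levels can be compared between genes. All 9 genes passed the filter on low values, at least 1 FPKM in at least 4 mice, which 13147 genes of the table passed. Steps in the low values placed the depth at between 228000 and 403000 fragments per mouse, with a median of 320000. The number of fragments behind a value was estimated from that depth, with the longest annotated transcript taken as the length of a gene. Its median was 53.6 for *Dgat2*, 18.1 for *Agpat3*, 16.3 for *Agpat2*, 8.25 for *Dgat1* and 1.06 for *Agpat1*. Tests were run with limma on log2(FPKM + 1), where changes of low genes appear smaller than they are. A gene passed at an adjusted p under 0.05 with an absolute log2 difference above 0.5. The p-values set a difference against the spread between these mice within their groups. That spread is pooled over all groups and includes counting error. In bulk tissue, fewer cells of a type and less RNA per cell cannot be told apart.

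*Mboat7* itself was low in every group. Control mice on chow had 2.42, 4.33, 0.902 and 4.99 FPKM, and *Mboat7* ASKO mice on chow had 0, 1.39, 0 and 2.89 FPKM. On HFD, control mice had 0, 0, 2.15 and 1.61 FPKM and *Mboat7* ASKO mice had 1.14, 0, 2.60 and 0 FPKM. The genotypes overlapped on both diets, and at an estimated median of 1.41 fragments per mouse the table does not separate them by *Mboat7*. The tissue carried the markers of adipocytes. The mean log2(FPKM + 1) of 10 adipocyte markers was 8.03 in control and 8.11 in *Mboat7* ASKO mice on chow, and 6.87 and 6.71 on HFD. That of 10 macrophage markers was 3.62 and 3.65 on chow, and 5.54 and 6.06 on HFD. The summed level of the adipocyte markers was 9125 to 25957 FPKM per mouse on chow and 4680 to 10728 FPKM on HFD, and that of the macrophage markers was 225 to 305 FPKM and 637 to 1270.5 FPKM. No marker of either list was at 0 in a whole group. The adipocyte markers did not move alike. In control mice, 1 of the 10 had a higher and 9 a lower mean log2 level on HFD. *Cfd* had 864 to 2595 FPKM on chow and 19.2 to 33.9 FPKM on HFD, and *Retn* 97.8 to 262.5 and 4.98 to 73.6 FPKM. *Pparg* had 17.1 to 57.1 and 27.9 to 34.8 FPKM. Their mean therefore carries diet differences of single genes and does not measure adipocyte content alone. None of 4 epididymis markers was listed.

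The 9 genes were not present at similar levels. Over the 16 mice, the mean was 77.4 FPKM for *Dgat2*, 39.96 for *Agpat2*, 12.4 for *Dgat1*, 10.8 for *Agpat3*, 7.53 for *Lpin1*, 7.26 for *Gpat4*, 4.32 for *Gpam*, 2.87 for *Agpat5* and 2.34 for *Agpat1*. *Dgat2* exceeded *Agpat2* in 15 of 16 mice, and *Agpat2* exceeded *Dgat1* in 15 of 16 mice. Below these, neighbours in the order overlapped: *Dgat1* exceeded *Agpat3* in 9 mice, *Lpin1* exceeded *Gpat4* in 7, *Gpam* exceeded *Agpat5* in 8 and *Agpat5* exceeded *Agpat1* in 9. *Dgat2* and *Agpat2* together made up between 51.6% and 86.6% of the summed FPKM of the 9 genes in a mouse. Among the 9 genes, the most abundant of each step were *Gpat4*, *Agpat2*, *Lpin1* and *Dgat2*, and *Gpat4* exceeded *Gpam* in 13 of 16 mice.

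**Figure D1:**
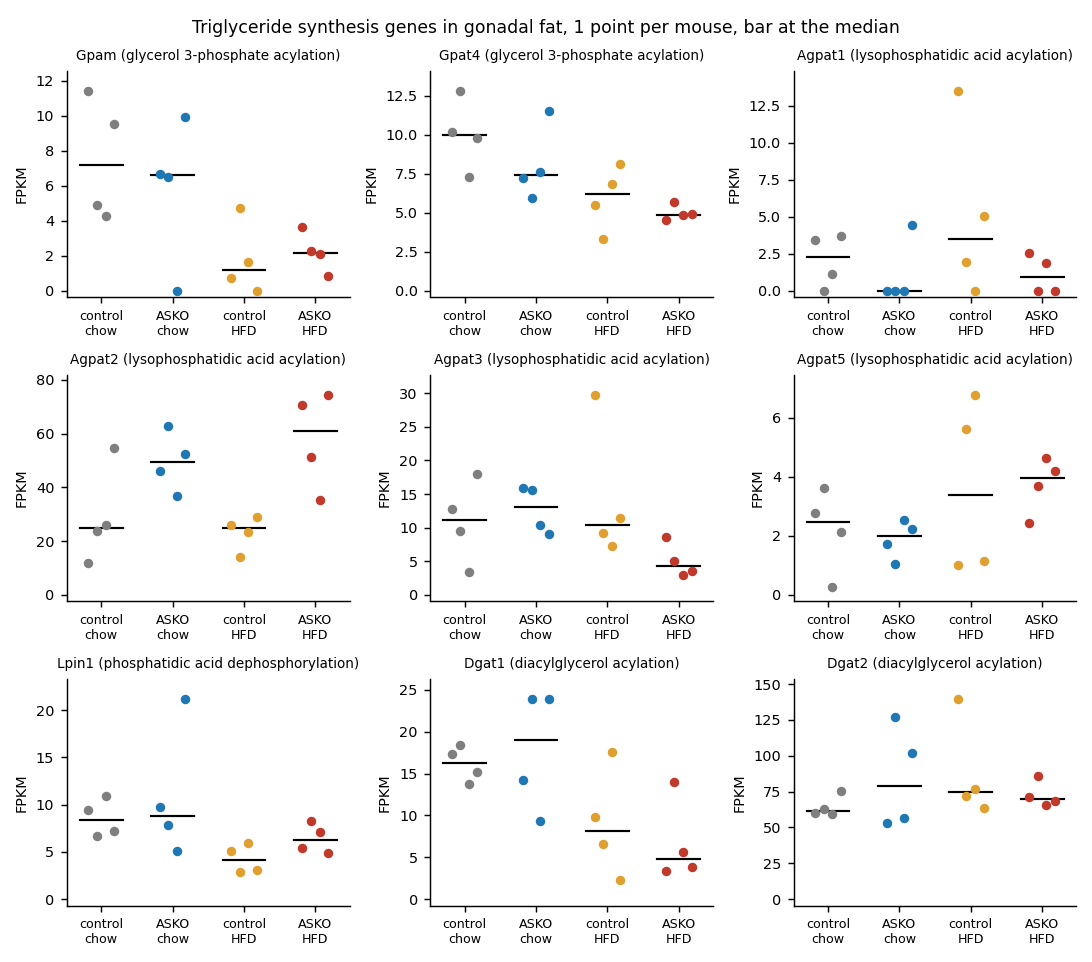
FPKM (linear axis, 1 scale per gene) of the 9 genes in the 4 groups, with 1 point per mouse and a bar at the group median. The medians of Agpat2 were 49.3 and 61.0 FPKM in ASKO mice on chow and HFD against 24.9 and 24.8 FPKM in control mice, and the 4 ASKO mice on HFD all lay above the 4 control mice on HFD.

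Promoters are shown for *Agpat2*, *Gpam* and *Lpin1*, the only members with a RefSeq entry at the annotated start of the gene. The choice did not use the differences between groups. Each is given as the 250 bases before that start (GRCm38.p6), read in the direction of transcription. All 3 lie on the minus strand, at chr2:26604418-26604667 for *Agpat2*, chr19:55127239-55127488 for *Gpam* and chr12:16610967-16611216 for *Lpin1*. None of these windows overlaps an annotated exon. Capitals mark matches on either strand to 5 motifs, the GC box GGGCGG, the CCAAT box CCAAT, the E-box CACGTG, the TATA box TATAAA and the C/EBP motif TTGCNNAA.
Agpat2: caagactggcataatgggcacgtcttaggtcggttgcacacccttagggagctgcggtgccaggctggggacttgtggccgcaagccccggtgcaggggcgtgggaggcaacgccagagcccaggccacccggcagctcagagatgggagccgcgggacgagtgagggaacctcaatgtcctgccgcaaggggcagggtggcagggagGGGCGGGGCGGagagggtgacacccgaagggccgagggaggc
Gpam: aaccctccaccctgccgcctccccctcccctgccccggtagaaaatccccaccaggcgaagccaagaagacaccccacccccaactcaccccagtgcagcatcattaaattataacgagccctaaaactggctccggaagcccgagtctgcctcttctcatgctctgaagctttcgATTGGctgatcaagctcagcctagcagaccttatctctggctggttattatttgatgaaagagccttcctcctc
Lpin1: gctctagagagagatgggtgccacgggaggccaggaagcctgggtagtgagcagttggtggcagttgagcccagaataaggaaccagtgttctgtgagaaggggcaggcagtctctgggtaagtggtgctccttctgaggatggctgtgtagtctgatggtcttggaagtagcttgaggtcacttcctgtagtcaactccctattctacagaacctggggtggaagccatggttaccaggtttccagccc
The *Agpat2* window is 69.2% G and C and holds 2 GC boxes that share 1 base. The *Gpam* window is 54.8% G and C and holds 1 CCAAT box, read from the opposite strand as ATTGG. A further *Gpam* entry, at chr19:55099478-55099727, does not lie at the annotated start of the gene and is not shown. It overlaps an annotated exon, is 66.0% G and C and holds 1 GC box but no CCAAT box. The *Lpin1* window is also 54.8% G and C and holds none of the 5 motifs. Of 32851 promoters, 32.7% hold a GC box in the same window, 33.8% a CCAAT box, 6.0% an E-box, 12.4% a TATA box and 9.6% the C/EBP motif. A match describes the letters of the window only.

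The first question was whether deletion of *Mboat7* in adipocytes altered the expression of these enzymes. None of the 9 passed the test on HFD, where 0.00761% of all tested genes did, and none passed on chow, where 0.00761% did. On HFD, 2 of the 9 had an unadjusted p under 0.05 (limma), *Agpat2* with a higher and *Agpat3* with a lower mean in *Mboat7* ASKO mice, against 5.15% of all tested genes. On chow, only *Agpat2* did, against 4.8% of all tested genes. The median log2 difference of the 9 genes was -0.16 on HFD and 0.05 on chow, beside 0.02 and 0.00 over all tested genes.

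The second question was what 20 weeks of HFD did to them. None of the 9 passed in control mice, where 2.91% of all tested genes did, or in *Mboat7* ASKO mice, where 3.43% did. *Gpam* and *Lpin1* had an unadjusted p under 0.05 in control mice, and *Agpat3* and *Dgat1* in *Mboat7* ASKO mice, each with a lower mean on HFD. Over all tested genes, the share with such a p was 14.2% in control and 15% in *Mboat7* ASKO mice. The median difference of the 9 genes was -0.17 in control mice, beside 0.00 over all tested genes, and -0.55 in *Mboat7* ASKO mice, beside 0.03. No member passed the genotype-by-diet interaction, where 0.0% of all tested genes did, and 1 of 9, *Agpat3*, had an unadjusted p under 0.05 against 6.29% of all tested genes.

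Averaging the diet difference over both genotypes sets 8 mice against 8, a comparison chosen after the values had been seen. It called 7.53% of all tested genes and none of the 9. The 4 members with an unadjusted p under 0.05 (limma) all had a lower mean on HFD, *Gpam*, *Gpat4*, *Lpin1* and *Dgat1*. Over all tested genes, 8.91% had such a p with a lower mean. The median difference of the 9 genes was -0.44, beside 0.01. The genotype difference averaged over both diets called none of the 9, where 0.0% of all tested genes passed, and only *Agpat2* had an unadjusted p under 0.05, against 3.77%.

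**Figure D2:**
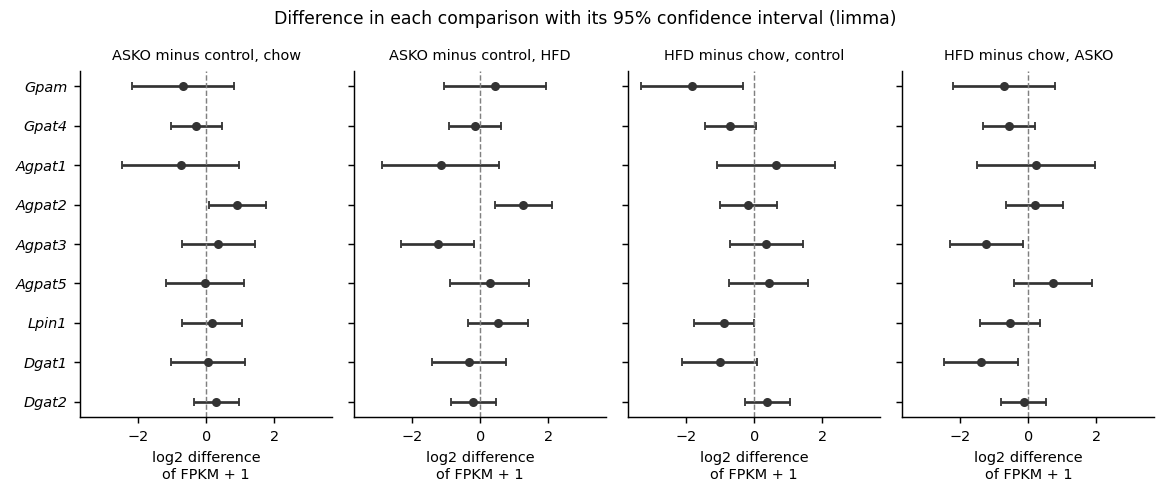
Log2 difference of FPKM + 1 (horizontal axis) of each of the 9 genes in 4 comparisons, with its 95% confidence interval from limma and a dashed line at 0. The interval of Agpat2 lies above 0 for genotype on both diets, from 0.43 to 2.11 on HFD and from 0.07 to 1.76 on chow, and no difference passed after adjustment.

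At the first step, GPAM is the mitochondrial acyltransferase and GPAT4 sits in the endoplasmic reticulum and on lipid droplets. *Gpam* (chr19:55067268-55127238, minus strand, GRCm38) was at 11.4, 4.88, 4.27 and 9.55 FPKM in control mice on chow, and at 0.698, 4.70, 1.64 and 0 FPKM on HFD. In *Mboat7* ASKO mice it was at 6.69, 6.50, 0 and 9.92 FPKM on chow, and at 3.62, 2.27, 2.09 and 0.829 FPKM on HFD. The highest value on HFD lay within the range on chow in both genotypes, and *Gpam* was listed at 0 in 1 control mouse on HFD and 1 *Mboat7* ASKO mouse on chow. The diet difference was -1.83 ± 0.71 (SE) in control mice, with an adjusted p of 0.221 (limma), and -0.72 ± 0.71 in *Mboat7* ASKO mice, with an adjusted p of 0.717. The latter was -1.5 without *Mboat7* ASKO mouse 2 on chow, where *Gpam* was listed at 0, and -0.35 without mouse 3 of that group. The test of whether these differed gave 1.11 ± 1.0, with an adjusted p of 0.891. The genotype differences were 0.43 ± 0.71 on HFD and -0.67 ± 0.71 on chow.

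*Gpat4* (chr8:23171265-23208346, minus strand) varied less. Control mice had 10.2, 12.8, 7.27 and 9.80 FPKM on chow and 5.51, 3.29, 6.84 and 8.12 FPKM on HFD. *Mboat7* ASKO mice had 7.22, 5.96, 7.64 and 11.5 FPKM on chow and 4.54, 5.71, 4.83 and 4.93 FPKM on HFD. The 4 *Mboat7* ASKO mice on HFD all lay below the 4 on chow, as 4.42% of all tested genes did, while the diets overlapped in control mice. The diet difference was -0.57 ± 0.36 in *Mboat7* ASKO mice (adjusted p 0.503) and -0.70 ± 0.36 in control mice (adjusted p 0.405). The mean of *Gpat4* in *Mboat7* ASKO mice was 5.0 ± 0.499 FPKM (SD, n = 4) on HFD against 5.94 ± 2.06 in control mice, a difference of -0.16 ± 0.36 on the log2 scale.

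AGPAT2 is the acyltransferase of the next step that is most abundant in fat. *Agpat2* (chr2:26593057-26604417, minus strand) had 12, 23.9, 25.9 and 54.5 FPKM in control mice on chow, and 46.0, 62.9, 36.9 and 52.6 FPKM in *Mboat7* ASKO mice on chow. On HFD, control mice had 26.0, 14.2, 23.6 and 29.1 FPKM and *Mboat7* ASKO mice had 70.7, 51.2, 35.4 and 74.5 FPKM. The genotypes did not overlap on HFD, where 3.38% of all tested genes did not in either direction, and on chow the highest control mouse lay above 3 of the 4 *Mboat7* ASKO mice. On HFD the means were 57.9 ± 18.2 and 23.2 ± 6.40 FPKM (SD, n = 4 each), a difference of 1.27 ± 0.40 (SE) on the log2 scale or 2.41-fold. Its unadjusted p was 0.00555 and its adjusted p 0.824 (limma). On chow the means were 49.6 ± 10.9 and 29.1 ± 18.1 FPKM, a difference of 0.91 ± 0.40 with an adjusted p of 0.983. Averaged over both diets the difference was 1.09 ± 0.28, or 2.13-fold, with an unadjusted p of 0.00126 and an adjusted p of 0.961. Leaving out each mouse in turn kept the difference between 1.06 and 1.48 on HFD and between 0.57 and 1.27 on chow. The diet differences of *Agpat2* were -0.17 ± 0.40 in control and 0.19 ± 0.40 in *Mboat7* ASKO mice, and the interaction was 0.36 ± 0.56.

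The last exon bases of *Agpat2* are shared with *Egfl7*, a gene of endothelial cells on the opposite strand, over 64 bases or 3.0% of the exon bases of *Agpat2*. *Egfl7* had 2.81, 5.61, 5.68 and 0 FPKM in control and 8.97, 8.42, 23.3 and 8.39 FPKM in *Mboat7* ASKO mice on chow. On HFD it had 5.46, 17.0, 6.45 and 0 FPKM in control and 9.68, 6.08, 13.5 and 33.1 FPKM in *Mboat7* ASKO mice. Its genotype difference averaged over both diets was 1.55 ± 0.56 (adjusted p 1.0), in the same direction as that of *Agpat2*. The mean log2(FPKM + 1) of 4 endothelial markers was 2.78 in both genotypes on chow, and 3.30 in control and 3.02 in *Mboat7* ASKO mice on HFD. The library kit kept strand, but whether strand entered the counting is not given in the sources used here. The part of *Egfl7* in the *Agpat2* values was not tested.

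*Agpat3* (chr10:78269178-78352489, minus strand) encodes an acyltransferase of the endoplasmic reticulum and Golgi that also acts on other lysophospholipids. Control mice had 12.8, 9.51, 3.41 and 17.9 FPKM on chow and 29.8, 9.25, 7.22 and 11.4 FPKM on HFD. *Mboat7* ASKO mice had 15.9, 15.6, 10.4 and 9.01 FPKM on chow and 8.56, 5.01, 3.0 and 3.5 FPKM on HFD. *Mboat7* ASKO mice on HFD were the lowest group, and all 4 lay below all 4 on chow, as 4.42% of all tested genes did. Against control mice on HFD, their difference was -1.24 ± 0.50 (adjusted p 0.901, limma), with 1 *Mboat7* ASKO mouse above the lowest control mouse. Against *Mboat7* ASKO mice on chow, it was also -1.24 ± 0.50 (adjusted p 0.241), and these comparisons share the *Mboat7* ASKO mice on HFD. The interaction was -1.59 ± 0.71, with an unadjusted p of 0.0394 and an adjusted p of 0.769. In a fit with the mean of the adipocyte markers as a covariate, the diet difference in *Mboat7* ASKO mice was -0.16 and the genotype difference on HFD was -1.12. In control mice the same fit gave a diet difference of 1.24, against 0.35 without the covariate. None of these passed. The covariate moves with diet, and its part in the differences cannot be told apart from that of diet.

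*Agpat5*, which encodes a mitochondrial member of the family, ranged from 0.272 to 6.78 FPKM over the 16 mice. Its differences ran from -0.03 ± 0.54 for genotype on chow to 0.72 ± 0.54 for diet in *Mboat7* ASKO mice. It shares 18.9% of its exon bases with the antisense gene *Gm35934*, so its level is uncertain. *Agpat1* was listed at 0 in 7 of 16 mice, including 3 of the 4 *Mboat7* ASKO mice on chow, and at up to 13.5 FPKM in a control mouse on HFD. Its differences had standard errors of 0.82, and the largest was -1.16 for genotype on HFD. No difference of either gene was detectable at this depth.

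The share of *Agpat2* among the AGPAT genes was followed as the log2 ratio of *Agpat2* to the sum of *Agpat1*, *Agpat3* and *Agpat5* within a mouse. On HFD it was -0.75, -0.23, 0.71 and 0.69 in controls and 2.30, 2.43, 1.79 and 3.12 in *Mboat7* ASKO mice, and the genotypes did not overlap. The means differed by 2.30 (exact permutation test, two-sided, p = 0.0286, the smallest that 4 mice against 4 allow, and 0.171 after adjustment over 12 tests). On chow the ratio was -0.62, 0.81, 2.21 and 1.17 in controls and 1.33, 1.85, 1.44 and 1.68 in *Mboat7* ASKO mice, and the means differed by 0.68 (exact permutation test, p = 0.343). Without any 1 of the 8 mice on HFD, the difference stayed between 2.02 and 2.51. The ratio is built from the same values as the genotype differences on HFD of *Agpat2* (1.27) and *Agpat3* (-1.24). It is therefore no separate observation. With the smallest p at 0.0286, a lone difference among 12 tests cannot pass after adjustment.

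**Figure D3:**
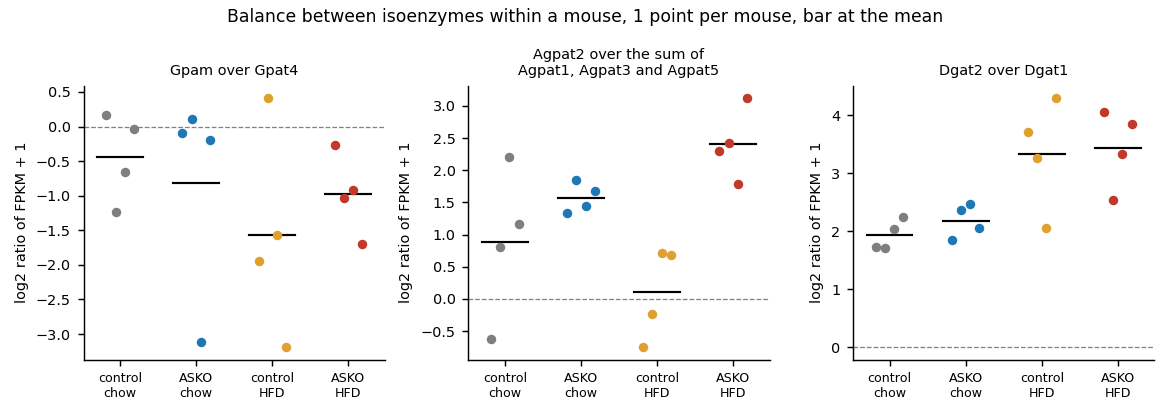
Log2 ratio of FPKM + 1 between enzymes of the same step (vertical axis), with 1 point per mouse, a bar at the group mean and a dashed line at equal levels. On HFD, the Agpat2 ratio has means of 0.11 in control and 2.41 in ASKO mice, and the Dgat2 to Dgat1 ratio has means of 3.33 and 3.44, above 1.93 and 2.18 on chow.

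Lipin 1 is the main phosphatidic acid phosphatase of adipocytes and also acts as a transcriptional coactivator. *Lpin1* (chr12:16535669-16610966, minus strand) had 9.45, 6.65, 10.9 and 7.20 FPKM in control mice on chow and 5.09, 2.84, 5.89 and 3.13 FPKM on HFD. *Mboat7* ASKO mice had 9.78, 7.83, 5.05 and 21.2 FPKM on chow and 5.36, 8.22, 7.15 and 4.89 FPKM on HFD. In control mice all values on HFD lay below all values on chow, as 3.89% of all tested genes did, and in *Mboat7* ASKO mice the diets overlapped. The diet difference was -0.89 ± 0.42 in control mice (adjusted p 0.348, limma) and -0.55 ± 0.42 in *Mboat7* ASKO mice (adjusted p 0.611). The interaction was 0.34 ± 0.59. The genotype difference was 0.52 ± 0.42 on HFD and 0.18 ± 0.42 on chow.

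DGAT1 and DGAT2 both complete triglyceride, and DGAT2 is linked to newly made and DGAT1 to re-esterified fatty acids. *Dgat1* (chr15:76502015-76511953, minus strand) had 17.3, 18.4, 13.8 and 15.2 FPKM in control mice on chow and 9.77, 6.61, 17.6 and 2.31 FPKM on HFD. *Mboat7* ASKO mice had 14.2, 23.9, 9.37 and 23.9 FPKM on chow and 3.34, 14, 5.65 and 3.85 FPKM on HFD. In each genotype 1 mouse on HFD lay within the range on chow and the other 3 lay below it. The diet difference was -1.02 ± 0.52 in control mice (adjusted p 0.397, limma) and -1.38 ± 0.52 in *Mboat7* ASKO mice (adjusted p 0.187). The difference in control mice was -1.4 without mouse 2 on HFD and -0.57 without mouse 3 on HFD. Averaged over both genotypes it was -1.2 ± 0.36, a 2.30-fold lower level on HFD, with an adjusted p of 0.0547. Without *Mboat7* ASKO mouse 2 on chow, control mouse 2 on HFD or *Mboat7* ASKO mouse 1 on HFD, this difference passed, at -1.33, -1.39 and -1.39, with adjusted p of 0.0381, 0.0239 and 0.0254. Over all alternatives its adjusted p ran from 0.0239 to 0.919. The genotype differences were -0.32 ± 0.52 on HFD and 0.05 ± 0.52 on chow.

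Cell type markers moved with diet beside these members. Of 10 adipocyte markers, 3 fell and 1 rose with HFD in control mice, and 4 fell and 1 rose in *Mboat7* ASKO mice, the riser being *Lep*, which encodes leptin, both times (limma). Of 10 macrophage markers, 6 rose in control and 8 in *Mboat7* ASKO mice. Over all tested genes, 2.91% passed for diet in control and 3.43% in *Mboat7* ASKO mice, in either direction. *Adipoq*, which encodes adiponectin, fell by 1.67 on the log2 scale in controls and by 1.38 in *Mboat7* ASKO mice (adjusted p 0.00117 and 0.0047). With the mean of the 10 adipocyte markers as a covariate, the averaged diet difference was -0.32 for *Dgat1*, -1.44 for *Gpam*, -0.85 for *Lpin1* and -0.52 for *Gpat4*, and none passed. This covariate moves with diet, and its part in the differences cannot be told apart from that of diet.

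*Dgat2* (chr7:99153658-99182719, minus strand) was the most abundant member in every group. Control mice had 59.8, 62.6, 59.3 and 75.4 FPKM on chow and 139.5, 72.1, 76.7 and 63.8 FPKM on HFD. *Mboat7* ASKO mice had 53.3, 127.0, 56.2 and 102.2 FPKM on chow and 71.2, 85.6, 65.4 and 68.4 FPKM on HFD. All groups overlapped, and the spread came mainly from 3 mice above 100 FPKM, 1 control mouse on HFD and 2 *Mboat7* ASKO mice on chow. The diet difference was 0.38 in control mice (95% interval -0.28 to 1.04) and -0.13 in *Mboat7* ASKO mice (-0.79 to 0.53). The genotype difference was -0.21 on HFD (-0.87 to 0.45) and 0.30 on chow (-0.36 to 0.96).

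The ratio of *Dgat2* to *Dgat1* within a mouse had a higher mean on HFD than on chow in both genotypes. In *Mboat7* ASKO mice the log2 ratio was 1.84, 2.36, 2.46 and 2.05 on chow and 4.06, 2.53, 3.32 and 3.84 on HFD, and the diets did not overlap. The means differed by 1.26 (exact permutation test, two-sided, p = 0.0286, 0.171 after adjustment over 12 tests). In control mice it was 1.73, 1.71, 2.03 and 2.24 on chow and 3.71, 3.26, 2.06 and 4.29 on HFD, and 1 mouse on HFD lay within the range on chow. The means differed by 1.40 (exact permutation test, p = 0.0571, 0.171 after adjustment). Between genotypes the ratio differed by 0.11 on HFD and 0.25 on chow (exact permutation test, p = 0.829 and 0.229). The *Gpam* to *Gpat4* ratio differed by between -1.13 and 0.59 in its 4 comparisons, all with p of at least 0.229 by the exact permutation test. Leaving out control mouse 1 or 3 on HFD moved it to -1.79 or -0.59 for diet in controls, and to 1.26 or 0.06 for genotype on HFD.

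The genes of the neighbouring steps were listed by function, 26 genes in 5 lists, of which 23 were tested. *Gpat2*, *Lpin3* and *Fitm1* were below the filter. For genotype, none of the 23 passed on either diet (limma), where 0.00761% of all tested genes did on each. On HFD only *Pck1* had an unadjusted p under 0.05, against 5.15% of all tested genes, and on chow only *Cds1*, against 4.8%. For diet, only *Pck1* passed in each genotype, where 2.91% of all tested genes passed in control and 3.43% in *Mboat7* ASKO mice. Its list supplies glycerol 3-phosphate. PCK1 makes the phosphoenolpyruvate from which fat cells build glycerol 3-phosphate when glucose is scarce.

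*Pck1* had 352, 394, 413 and 342 FPKM in control mice on chow and 26.9, 44.5, 46.2 and 27.7 FPKM on HFD. It fell by 3.37 ± 0.30 on the log2 scale, 10.4-fold, with an adjusted p of 6.6e-06. In *Mboat7* ASKO mice it had 259, 488, 207 and 475 FPKM on chow and 59.1, 52.0, 49.0 and 76.9 FPKM on HFD, and fell by 2.5 ± 0.30, 5.64-fold, with an adjusted p of 0.000124. The 4 *Mboat7* ASKO mice on HFD all lay above the 4 control mice on HFD, where 1.69% of all tested genes lay so, with a difference of 0.71 ± 0.30 and an adjusted p of 0.917. The interaction was 0.88 ± 0.43, with an adjusted p of 0.796.

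Of the same list, *Gk*, glycerol kinase, was low, at 0 to 0.805 FPKM in the 8 mice on chow and at 0.607 to 3.57 FPKM in the 8 on HFD. Its diet difference was 0.66 ± 0.39 in control mice (adjusted p 0.499) and 1.44 ± 0.39 in *Mboat7* ASKO mice (adjusted p 0.0544). Averaged over both genotypes *Gk* rose by 1.05 ± 0.28 (adjusted p 0.0266, limma), on values of a few fragments. That comparison was chosen after the values had been seen, and 7.53% of all tested genes passed it. *Gpd1*, which makes glycerol 3-phosphate from a glycolytic intermediate, differed by 0.35 ± 0.36 and 0.51 ± 0.36 between diets, and *Aqp7*, a glycerol channel, by -0.62 ± 0.46 and -0.68 ± 0.46.

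Among the other isoenzymes, *Mogat1*, which makes diacylglycerol from monoacylglycerol, ranged from 4.02 to 41.5 FPKM on chow and from 0 to 10.04 FPKM on HFD. Its diet difference was -2.58 ± 0.91 in control mice (adjusted p 0.169) and -2.40 ± 0.91 in *Mboat7* ASKO mice (adjusted p 0.196). Averaged over both genotypes it fell by 2.49 ± 0.64 (adjusted p 0.0229, limma). This average was also chosen after the values had been seen, and 7.53% of all tested genes passed it. *Mogat1* was listed at 0 in 2 control mice and 1 *Mboat7* ASKO mouse on HFD. *Gpat3*, the other glycerol-3-phosphate acyltransferase of the endoplasmic reticulum, differed by -1.50 ± 0.51 in controls and -0.67 ± 0.51 in *Mboat7* ASKO mice. Its averaged difference of -1.08 ± 0.36 had an adjusted p of 0.0838. Its median was above those of *Gpam* and *Gpat4* in all 4 groups, at 19.8 FPKM in controls and 13.9 FPKM in *Mboat7* ASKO mice on chow, and at 8.43 and 10.2 FPKM on HFD.

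In the other lists no gene passed for diet in either genotype. The 4 long-chain acyl-CoA synthetases, which activate fatty acids for all acylation steps, had differences above 0 in both genotypes. In *Mboat7* ASKO mice *Acsl3* differed by 1.40 ± 0.54 (adjusted p 0.215) and *Acsl4* by 1.02 ± 0.48 (adjusted p 0.336). *Cds1*, which directs phosphatidic acid to phosphatidylinositol synthesis, differed by 1.2 ± 0.47 between genotypes on chow (adjusted p 0.922), where control mice had 0, 0, 0.666 and 0 FPKM and *Mboat7* ASKO mice 0, 1.68, 3.99 and 2.44 FPKM. These are values of a few fragments. Of the partner proteins, *Bscl2*, the seipin gene of lipid droplet formation, differed by -1.0 ± 0.43 between diets in *Mboat7* ASKO mice (adjusted p 0.27), and *Cnep1r1*, a subunit of the phosphatase that activates lipins, by -1.27 ± 0.79 in control mice (adjusted p 0.525) and 0.59 ± 0.79 in *Mboat7* ASKO mice (adjusted p 0.803).

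**Figure D4:**
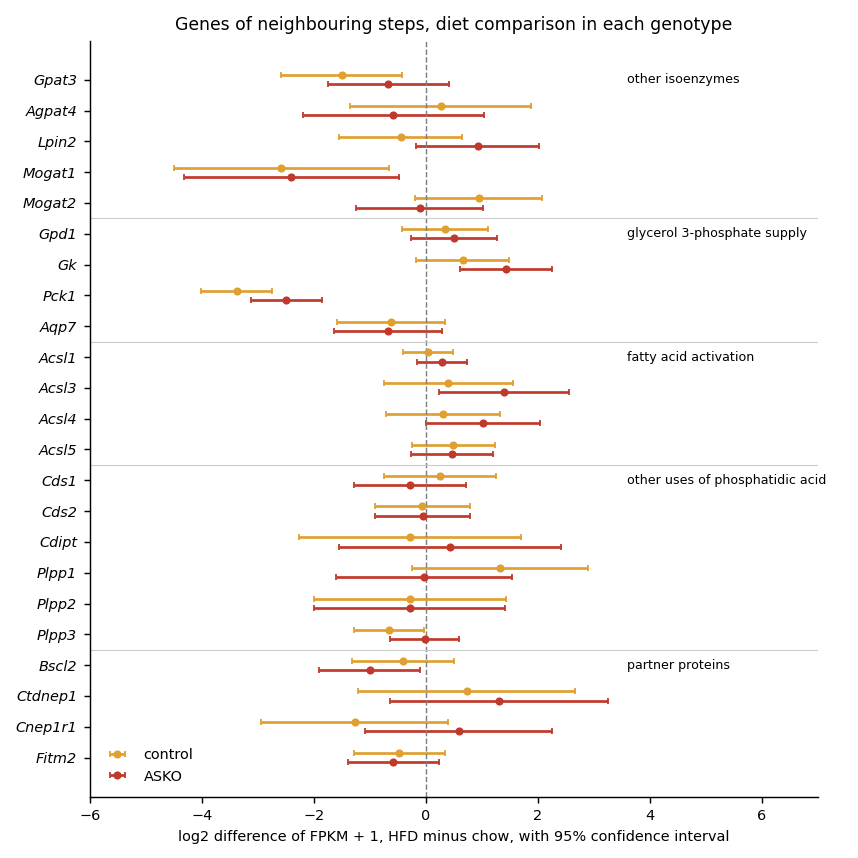
Log2 difference of FPKM + 1 between HFD and chow (horizontal axis) for the 23 tested genes of the neighbouring steps, in control and ASKO mice, with 95% confidence intervals from limma. Only Pck1 passed after adjustment, at -3.37 in control and -2.5 in ASKO mice. Mogat1 lay near these, at -2.58 and -2.40, with wider intervals that also lie below 0, without passing.

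For the most abundant member of each step, the genes whose levels followed it most closely were found over the 16 mice, on log2(FPKM + 1) with the mean of each diet subtracted. Pearson's r with *Dgat2* was 0.93 for *Gm11663*, 0.93 for *Rai2* and 0.91 for *Tada2a*. With *Agpat2* it was 0.83 for *Gm6180*, 0.80 for *Gm6493* and 0.79 for *Aplf*. With *Lpin1* it was 0.80 for *Ptpn22*, 0.80 for *Oasl2* and 0.79 for *Arid4b*, and with *Gpat4* it was 0.82 for *Ube2v1*, 0.80 for *Trmt1* and 0.79 for *4933402D24Rik*. They were the highest of 13146 genes each, the points share libraries and depth, and 10 of these 12 genes had means under 5 FPKM, so they are given as a description.

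Each member was also compared with the marker levels within the 8 mice of each diet, 36 relations in all. None had an adjusted p under 0.05. The strongest was *Dgat2* with the adipocyte markers on HFD, with Pearson's r of 0.92 (permutation p = 0.00717, adjusted 0.258) and Spearman's rho of 0.79 (permutation p = 0.0279, adjusted 0.502). Without the 2 mice farthest from the median of the markers, r was 0.43, so the relation rests on those mice.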

How the data were processed

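The gWAT of 16 male mice gave 1 RNA library per mouse after 20 weeks of diet. The authors used TrimGalore for trimming, STAR for alignment to mm10 with GENCODE gene models, and Cufflinks for FPKM values. The deposited table gives 1 FPKM value per gene and mouse. The annotation release, the library normalization and the use of strand in counting are not given in the sources used here. Labels and methods name different chow diets and sequencers.

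The 9 genes, the lists of neighbouring steps and the markers were chosen with earlier results of these data known. The lists name every gene that passed and at most 2 others each. A table-wide fit was made with limma 3.58.1 in R 4.3.3 on log2(FPKM + 1) of the 13147 genes that reached 1 FPKM in 4 or more mice. All 4 groups shared the fit, with the intensity trend and no covariate, and each of the 5 contrasts had its own Benjamini-Hochberg adjustment. The 2 averaged contrasts and the overlap partners were added after the data were seen. Ratios within a mouse were compared by two-sided exact permutation tests over 70 arrangements. The limma step was run on simulated normal log2 values. These lack the zeros and the steps of few fragments in the real values, so the run does not cover low genes. The table lists *Gpat3* under an older symbol, and it was matched by identifier. Symbols were restored for 22 names damaged by a spreadsheet, and the row with the highest mean was kept for 20 symbols on several rows. Identifiers were matched to gene names for 99.6% of genes.

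Depth was estimated from the step of low values in the 1473 protein-coding genes that have a single annotated transcript. Of these values, 50.3% to 87.7% per mouse were whole multiples of the step to within 0.2, where an even spread gives 40%, so it is an estimate, and it covers counting error only. Positions and exon overlaps are from GENCODE M21 on GRCm38. Promoters were found for 5 of the 9 genes in the RefSeq table, *Agpat1*, *Agpat2*, *Agpat3*, *Gpam* and *Lpin1*. Alternatives were pseudocounts, filters, scalings, fits, adjustments, a marker covariate, the replicate block and leaving out each mouse.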

Additional observations from a re-analysis of the deposited data

Results flagged for a closer look

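Of 64 groups of 4 values examined, 7 held a mouse far from the other 3, where about 3.2 are expected by chance. *Dgat2* stood at 139.5 FPKM in 1 control mouse on HFD, against 63.8 to 76.7 FPKM in the others. *Agpat1* reached 4.44 FPKM in a single chow-fed *Mboat7* ASKO mouse and was listed at 0 in the other 3. The log2 ratio of *Gpam* to *Gpat4* was -3.11 in 1 *Mboat7* ASKO mouse on chow, the mouse in which *Gpam* was listed at 0, against -0.20 to 0.11 in the others. The estimated depth was 403000 fragments in 1 control mouse on HFD, the mouse with the high *Dgat2* value, against 299000 to 305000 in the others. The FPKM sum was 772397 in 1 control mouse on chow, against 611890 to 636205, and its 10 highest genes took 41.9% of the sum, against 35.4% to 35.8%. In 1 *Mboat7* ASKO mouse on HFD the 10 highest genes took 54.2%, against 38.7% to 39.2%. This share was higher still in control mouse 1 on HFD, at 55.2%, but the others of that group reached 36.9% to 44.3%. A ribosomal RNA entry took 9.61% to 32.6% of the FPKM sum per mouse. It was highest in that control mouse, at 32.6%, and in that *Mboat7* ASKO mouse, at 31.4%. Its part in the differences was not tested.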

How the results depend on the processing

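No member passed in any of the 5 planned contrasts under any alternative run. For the diet contrast averaged over both genotypes, 1 member passed with a filter of 5 FPKM, *Dgat1* at -1.2 (adjusted p 0.0391, limma), a setting with fewer genes tested, and between 0 and 2 members passed when each mouse was left out in turn. *Gpam* was the other, at -1.66 (adjusted p 0.0169, against up to 0.672 under other alternatives) without *Mboat7* ASKO mouse 2 on chow, where it was listed at 0. The cause of the *Dgat1* calls without single mice was not tested. The replicate block changed no call, with 0 members passing in each contrast. The replicate number comes from the sample titles, which give it no further meaning. Same-numbered mice had correlations of their deviations between -0.19 and 0.15, with 1 of 24 pairs over 0.1. Whether same-numbered mice share a batch was not tested. Under the block, 361 genes passed for diet in controls and 390 in *Mboat7* ASKO mice, against 383 and 451 without it. With the adipocyte marker covariate, 51 and 23 genes passed.

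Of 1705 values of single members under alternatives, 50 changed sign, all of differences that did not pass, and 9 of these were not from leaving out a mouse. A pseudocount of 0.1 gave 0.14 for *Agpat5*, genotype on chow, 0.09 for *Agpat1*, interaction, and 0.31 for the *Gpam* to *Gpat4* ratio, diet in ASKO mice. Quantile normalization gave 0.03 for *Agpat5*, genotype on chow. Upper-quartile scaling, which moved the median of all genes to 0.17 for diet in ASKO mice, gave -0.03 for *Dgat1*, genotype on chow, and 0.09 for *Dgat2*, diet in ASKO mice. The marker covariate gave -0.01 for *Dgat1*, genotype on chow, 0.52 for *Agpat2*, diet in control mice, 1.0 for *Dgat2*, diet in ASKO mice, and 0.54 for *Agpat3*, averaged diet.

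Each mouse was left out in turn for the ratio of *Agpat2* to the sum of *Agpat1*, *Agpat3* and *Agpat5*. Its differences were 0.60 to 1.04 for diet in ASKO mice and 0.18 to 1.12 for genotype on chow. For *Dgat2* over *Dgat1* they were 1.05 to 1.56 for diet in ASKO mice, 1.08 to 1.83 for diet in controls and -0.32 to 0.43 for genotype on HFD. For *Gpam* over *Gpat4* they were -0.92 to 0.16 for diet in ASKO mice and -0.70 to 0.38 for genotype on chow.

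Of the differences of single members, 41 kept their sign when each mouse was left out in turn, and 22 of these moved by over 1.5 times. The single differences whose sign depended on 1 mouse had these ranges. *Agpat1* ran from -0.11 to 0.83 for diet in *Mboat7* ASKO mice and -1.08 to 0.20 for the interaction. *Agpat2* ran from -0.16 to 0.19 for averaged diet and -0.51 to 0.19 for diet in control mice. *Agpat3* ran from -0.06 to 0.64 for diet in controls and -0.06 to 0.64 for genotype on chow. *Agpat5* ran from -0.07 to 0.29 for averaged genotype, -0.01 to 0.70 for the interaction, -0.04 to 0.61 for genotype on HFD and -0.42 to 0.20 for genotype on chow. *Dgat1* ran from -0.36 to 0.06 for averaged genotype, -0.81 to 0.02 for the interaction, -0.77 to 0.06 for genotype on HFD and -0.12 to 0.30 for genotype on chow. *Dgat2* ran from -0.31 to 0.10 for diet in *Mboat7* ASKO mice, -0.07 to 0.17 for averaged genotype and -0.34 to 0.03 for genotype on HFD. *Gpam* ran from -0.31 to 0.27 for averaged genotype and -1.05 to 0.10 for genotype on chow. *Gpat4* ran from -0.08 to 0.30 for the interaction. *Lpin1* ran from -0.18 to 0.45 for genotype on chow.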
